A study of Mus musculus with 6 samples.

Results

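The miR-30 family arms were compared between mouse oligodendrocytes and the extracellular vesicle (EV) fraction pelleted from their medium. The members are the 9 rows of the deposited read count tables named miR-30a-5p, miR-30b-5p, miR-30c-5p, miR-30d-5p, miR-30e-5p, miR-30a-3p, miR-30b-3p, miR-30d-3p and miR-30e-3p, of 1906 miRNA rows in all. They were taken by name, and no measured value entered the rule, but the members were chosen with earlier results of these data known. All 9 had reads in each of the 6 libraries. By its title, the series is about miRNAs in medium supplements that pellet together with EVs, and it sequenced small RNA of vesicles and of their source cells. The 2 groups were EVs (n = 3) and Cells (n = 3). Both came from primary oligodendrocytes of C57BL/6N mice taken at embryonic day 14, with no mutant allele named, and both were cultured in Sato medium that contained 1% horse serum. After a PBS wash, vesicles accumulated over 24 h in Sato medium that held the supplement B27 and no serum. Days in vitro were 5 to 6 for the EVs and 6 for the cells. The vesicle fraction is what pelleted at 100000 g for 2 h after spins at 130 g for 10 min and 10000 g for 30 min, so it can hold other particles of that size or density. No library of medium alone was analysed here.

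A miRNA gene is transcribed into a hairpin, from which a duplex of a 5p arm and a 3p arm is cut. One arm is usually kept as the guide in an Argonaute protein, where its seed, the bases next to its 5′ end, pairs with target mRNAs, and the other arm, the passenger, is mostly degraded. In the miR-30 family the 5p arm is the usual guide, the 5p arms share their seed, and the family is known as abundant in many tissues, with roles in differentiation in several of them.

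The mature sequences below show how little separates the arms whose levels are compared, and which ones would be counted as each other if reads were assigned loosely. The seed, bases 2 to 8 from the 5′ end, is in capitals, and the sequences are from RefSeq on GRCm38.p6.
miR-30a-5p: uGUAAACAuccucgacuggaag
miR-30e-5p: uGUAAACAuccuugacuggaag
miR-30c-5p: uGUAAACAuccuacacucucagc
miR-30a-3p: cUUUCAGUcggauguuugcagc
miR-30e-3p: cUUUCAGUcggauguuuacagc
miR-30c-2-3p: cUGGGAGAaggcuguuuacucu
miR-384-5p: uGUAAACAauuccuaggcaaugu
The 5p arms of miR-30a and miR-30e differed at 1 of 22 positions, by C13U counted from the 5′ end of miR-30a-5p. Their 3p arms also differed at 1 of 22 positions, by G18A counted from the 5′ end of miR-30a-3p. miR-30c-5p shared its first 12 bases with both and differed from miR-30a-5p at 5 of the 22 compared positions. The 3p arms of miR-30a and miR-30e share one seed, and the 3p arm of the miR-30c-2 hairpin has another. miR-384-5p, which is not a member, has the same seed as the miR-30 5p arms. Sequences of the miR-30b and miR-30d arms are not printed.

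The hairpins of miR-30a and miR-30e show where the 5p arm and the 3p arm, both in capitals, lie on either side of the loop, since the arm ratios described further on compare these stretches.
Mir30a: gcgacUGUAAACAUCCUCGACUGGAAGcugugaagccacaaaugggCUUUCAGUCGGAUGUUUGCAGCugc
Mir30e: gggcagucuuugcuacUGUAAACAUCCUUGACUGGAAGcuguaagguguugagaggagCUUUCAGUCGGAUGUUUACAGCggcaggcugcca
In RefSeq on GRCm38.p6, Mir30a lies beside Mir30c-2 on chromosome 1 and Mir30b beside Mir30d on chromosome 15. Mir30e lies beside Mir30c-1 on chromosome 4, within Nfyc. miR-30c-5p is made from both Mir30c-1 and Mir30c-2, so its reads cannot be assigned to either gene.

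Reads assigned to miRNAs numbered 313766 to 689475 in the EV libraries and 126910 to 202358 in the cell libraries. Levels are CPM, each miRNA's share of its library's miRNA reads scaled to a common total, and the mature miRNAs whose sequences are printed have nearly equal lengths of 22 to 23 bases. The oligodendrocyte list (miR-219a, miR-338 and miR-138 among its 6 arms) had reads in all libraries for 5 of 6 members and had a summed level of 33560 to 36110 CPM in EVs, against 33960 to 43430 CPM in cells, while miR-219b-5p had 1 read in all. Within that sum, 2 arms (miR-219a-5p and miR-138-5p) were higher in every EV library and 3 (miR-219a-2-3p, miR-338-3p and miR-338-5p) lower. Of all miRNAs tested, 47.3% were higher and 20.2% lower in every EV library. The summed markers of other cell types were higher in every EV library, except for the myeloid list. The 3 neuronal markers added up to 89590 to 118700 CPM in EVs, against 35920 to 50820 CPM in cells, and each was higher in every EV library. Red cell markers summed to 3971 to 7905 CPM against 212.5 to 256.1 CPM, and 4 of 4 were higher in every EV library, with miR-144-5p at 0 in the cells. The same held for 47.3% of all miRNAs tested. Liver markers summed to 4204 to 8338 CPM against 29.65 to 55.16 CPM, of which miR-122-5p alone made up 4194 to 8316 CPM in EVs, and the other 2 overlapped between the groups. Mesenchymal markers summed to 2400 to 4699 CPM against 386.1 to 1037 CPM, with 3 of 3 higher in every EV library. Of the 4 myeloid markers 1, miR-155-5p, was lower in every EV library, and the others overlapped. Myeloid markers summed to 309.1 to 610.2 CPM against 551.6 to 1418 CPM, which also overlapped. In the cell libraries together miR-451a had 12 reads and miR-122-5p 18, against 5880 and 9511 in the EV libraries. The part of these other cell types in the results on miR-30 was not tested. Nor was the part of miRNAs from the medium supplements that the series title names. The libraries are bulk RNA, so a change in which cells or particles contributed and a change in the RNA of each cannot be told apart. Nothing in the labels tells whether the replicates are separate cultures. The p-values therefore measure only how far these samples spread, and that spread may be technical.

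The miR-30 5p arms took up a larger share of the miRNA reads in EVs than in cells. Together, the 5 of them made up 9.671%, 8.311% and 9.632% of the reads in EV replicates 1 to 3 and 4.91%, 5.174% and 5.203% in cell replicates 1 to 3, or 9.21% ± 0.774 (SD, n = 3) against 5.10% ± 0.161 (SD, n = 3). Every EV library was higher than every cell library. A sum over chosen members is given without a test. These shares are on the library size scale, where the median miRNA was also higher in EVs, by 0.54 on the log2 scale. In 47.3% of all miRNAs tested, every EV library was higher than every cell library. With TMM scaling, which corrects for a shift in the makeup of the libraries, the summed miR-30a-5p, miR-30d-5p and miR-30e-5p were higher by 0.35 (SE 0.14), and the summed miR-30b-5p and miR-30c-5p by 0.50 (SE 0.32). The 4 3p arms together overlapped between the groups: they made up 0.263% ± 0.0531 (SD, n = 3) of the EV reads and 0.264% ± 0.0213 (SD, n = 3) of the cell reads. miR-30a-3p and miR-30e-3p held 3897 of the 3970 EV reads in that sum and 1253 of the 1277 cell reads. On the library size scale those 2 arms differed in direction, while with TMM both changes were negative (-0.17 and -0.91). The pooled EV share was 1.296 times that of cells for miR-30a-3p, which overlapped by library, and 0.7771 times for miR-30e-3p. By CPM, miR-30e-3p and the rare miR-30b-3p were lower in every EV library. The rare miR-30d-3p was higher in each, but barely: EV replicate 2 had 31.87 CPM (10 reads), cell replicate 2 had 31.52 (4 reads). The sum also depends on scaling: the summed 3p arms of miR-30a and miR-30e changed by -0.48 (SE 0.19) with TMM and by -0.0022 with library size only. The plot of the 9 arms by library shows how far apart the levels of guide and passenger arms lie.

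**Figure D1:**
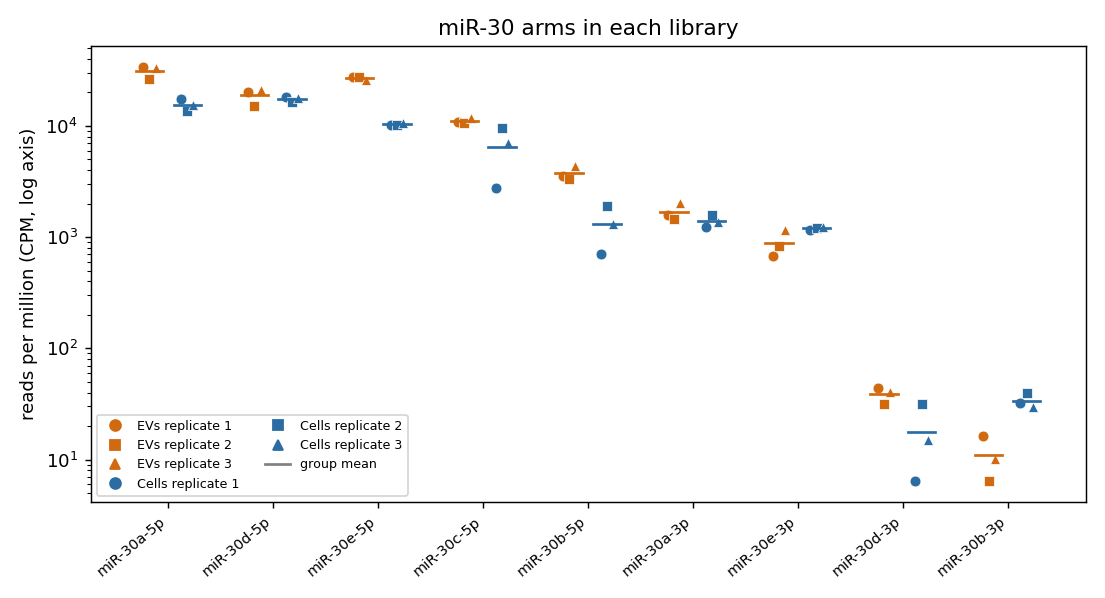
Level of each miR-30 arm in CPM (log axis) in the 6 libraries, with points for single libraries and lines for group means. miR-30a-5p, miR-30e-5p, miR-30c-5p and miR-30b-5p lie higher in all EV libraries (orange) than in all cell libraries (blue), while miR-30d-5p, at 15020 to 21170 CPM in EVs against 16480 to 18210 CPM in cells, overlaps.

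The order of the 5p arms differed between the groups. In EVs it ran miR-30a-5p, miR-30e-5p, miR-30d-5p, miR-30c-5p and miR-30b-5p, and only miR-30a-5p and miR-30e-5p, neighbours at the top, had overlapping ranges. In cells it ran miR-30d-5p, miR-30a-5p, miR-30e-5p, miR-30c-5p and miR-30b-5p, and only miR-30d-5p and miR-30a-5p overlapped among these neighbours. Among all miRNAs, miR-30a-5p had rank 5 in EVs and rank 16 in cells by mean CPM, miR-30e-5p ranks 8 and 20, and miR-30d-5p ranks 14 and 15. In cells the 3p arms of miR-30a and miR-30e had the levels of miR-30b-5p, within its spread. The 3p arms of miR-30d and miR-30b were the lowest members in both groups.

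miR-30e-5p, a guide strand from the Nfyc locus, rose in EVs, with the smallest SE among the tested members. It stood at 27760, 27650 and 25980 CPM in EV replicates 1 to 3 and at 10110, 10200 and 10620 CPM in cell replicates 1 to 3, a mean of 27130 ± 1000 against 10310 ± 276 (SD, n = 3 each). The 3 EV libraries lay within a narrow band far above the cells. Testing used edgeR's quasi-likelihood test over 336 miRNAs that passed its filter on low counts, with TMM scaling, and a miRNA was called where the Benjamini-Hochberg adjusted p was below 0.05. In that fit miR-30e-5p was higher in EVs by 0.93 on the log2 scale (SE 0.16, edgeR adjusted p = 0.0012), with 95% limits of 0.57 and 1.29. The call held under each of the 15 alternatives tried, and leaving out single libraries gave 0.77 to 0.98.

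TMM scaling and library size alone set different zero points here. The median log2 fold change of all 336 miRNAs was 0.06 with TMM and 0.54 with library size only, a shift of 0.48. Of the miRNAs called, 49.7% were higher in EVs with TMM and 71.2% with library size only. Relative to the median with TMM, miR-30e-5p lay at 0.87 and miR-30d-5p at -0.43. Taking the median off removes most of the difference between the scalings by construction.

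miR-30a-5p, which differs from miR-30e-5p by a single base outside the seed, was the most abundant member in EVs. Its level was 34110, 26480 and 33000 CPM in EV replicates 1 to 3 and 17330, 13570 and 15290 CPM in cell replicates 1 to 3, a mean of 31190 ± 4125 against 15400 ± 1884 (SD, n = 3 each). EV replicate 2 was the lowest of its group and still above each cell library. The fitted change was 0.53 (SE 0.19, edgeR adjusted p = 0.0327). That call rested on single libraries: the adjusted p was 0.0842 without EV replicate 1, 0.102 without cell replicate 2 and 0.122 without cell replicate 3, with changes of 0.41 to 0.48. Reads of miR-30a-5p and miR-30e-5p could be exchanged by an aligner that allows mismatches, and the sources used here do not give its settings. Summed into 1 row with miR-30d-5p, they were higher by 0.84 with library size only, against the 0.35 with TMM given above.

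miR-30b-5p had the largest fitted change of the members, from a lower level. It was measured at 3568, 3340 and 4390 CPM in EV replicates 1 to 3 and at 710.7, 1899 and 1319 CPM in cell replicates 1 to 3. All EV libraries were higher than all cell libraries, and cell replicate 1, with 111 reads, was the lowest. The change was 1.09 (SE 0.28, edgeR adjusted p = 0.00918), and 0.82 (adjusted p = 0.0135) without cell replicate 1. Without EV replicate 2 the change was 1.00 and the call was lost (edgeR adjusted p = 0.0564).

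For miR-30c-5p the fitted difference rested on cell replicate 1. This guide strand stood at 10930, 10620 and 11790 CPM in EV replicates 1 to 3, and at 2740, 9589 and 7062 CPM in cell replicates 1 to 3. The EV libraries were tight, while the cell libraries spread widely, with replicate 1 the lowest, and the groups did not overlap. The change was 0.36 (SE 0.32, edgeR adjusted p = 0.377, 95% limits -0.36 and 1.08), which was not called, and without cell replicate 1 it was 0.0099. The ratio of miR-30c-5p to miR-30b-5p moved less in that library: it was 3.86, 5.05 and 5.35 in cell replicates 1 to 3.

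miR-30d-5p, the most abundant member in cells, had overlapping levels in the groups. It had 20340, 15020 and 21170 CPM in EV replicates 1 to 3 and 18210, 16480 and 17730 CPM in cell replicates 1 to 3. EV replicate 2 lay below all cell libraries and the other EV libraries above them. Its fitted change was -0.37 with TMM (SE 0.17, edgeR adjusted p = 0.0869) and turned to 0.11 (adjusted p = 0.572) with library size only. It was called lower with DESeq2 (-0.43, adjusted p = 0.0382) and in edgeR with upper-quartile scaling (-0.48, adjusted p = 0.032) or without the most abundant miRNA (-0.47, adjusted p = 0.0181).

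The passenger arm of miR-30e moved against its guide. miR-30e-3p, cut from the same hairpin as miR-30e-5p, stood at 679.8, 828.6 and 1156 CPM in EV replicates 1 to 3 and at 1165, 1213 and 1245 CPM in cell replicates 1 to 3. All EV libraries were lower than all cell libraries, but EV replicate 3 came close to the lowest cell library. Its fitted log2 change was -0.91 (SE 0.23, edgeR adjusted p = 0.00811), a call of lower. With library size only the change was -0.44 and no longer called (adjusted p = 0.135).

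miR-30a-3p, the passenger of miR-30a, had 1578, 1469 and 2039 CPM in EV replicates 1 to 3 and 1223, 1568 and 1359 CPM in cell replicates 1 to 3. The groups overlapped, and the change was -0.17 with TMM (SE 0.20, edgeR adjusted p = 0.488) and 0.30 with library size only (adjusted p = 0.259). Reads of the 3p arms of miR-30a and miR-30e could also be exchanged, and only their sum, given above, is free of that.

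The 3p arms of miR-30b and miR-30d were too rare for the low-count filter, so 7 of the 9 members were tested. miR-30b-3p had 7, 2 and 7 reads in EV replicates 1 to 3 and 5, 5 and 6 reads in the smaller libraries of cell replicates 1 to 3. Pooled, its share in EVs was 0.339 times that in cells, or -1.56 in log2, on the library size scale. The exact 95% interval of 0.159 to 0.723 covers counting error only. On the TMM scale and without the low-count filter it was called lower (-1.87, edgeR adjusted p = 0.0147). It was also called lower with TMM and a filter at 10 CPM (-2.03, edgeR adjusted p = 0.00789). miR-30d-3p went the other way by count, with 19, 10 and 28 reads in EV replicates 1 to 3 and 1, 4 and 3 reads in cell replicates 1 to 3. Its pooled share in EVs was 2.41 times that in cells (exact 95% interval 1.15 to 5.85, counting error only), or 1.27 in log2, by library size. With TMM and without the filter its change was 0.90 (edgeR adjusted p = 0.403).

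Of the 7 members tested, 3 were called higher in EVs (miR-30a-5p, miR-30b-5p and miR-30e-5p), against a background of 28.6% of all miRNAs tested. A single member, miR-30e-3p, was called lower, where the background was 28.9%. The other 3 were not called. In CPM, every EV library was higher than every cell library for 4 of the 7, and the same held for 47.3% of all miRNAs tested. Every EV library was lower for 1 of the 7, against 20.2%. The median log2 fold change of the tested members was 0.36 with TMM and 0.78 with library size only. The 3 calls among the 5 tested 5p arms were all higher, and the 1 call among the 2 tested 3p arms was lower.

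**Figure D2:**
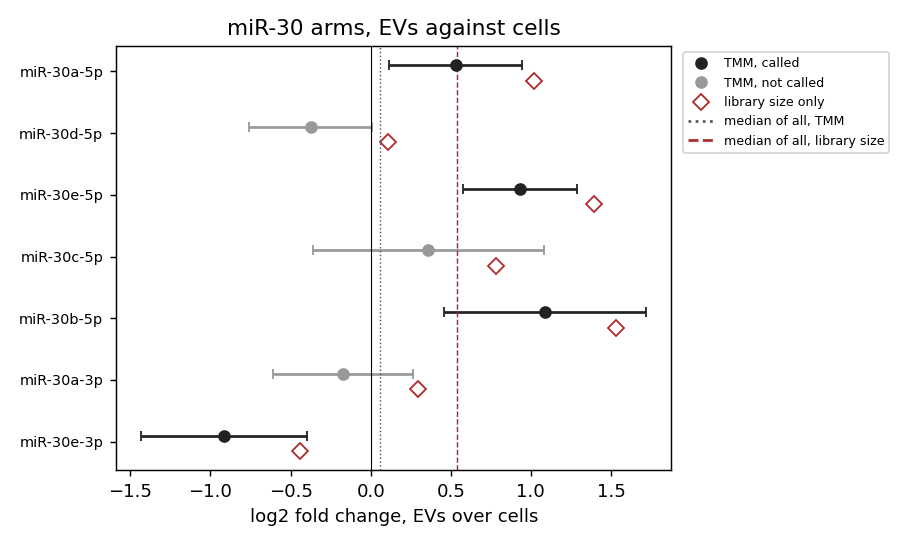
Log2 fold change of the 7 tested miR-30 arms, EVs over cells, with 95% limits (bars) from edgeR with TMM scaling, and the estimate with library size only (open diamonds). miR-30e-5p, miR-30b-5p and miR-30a-5p lie above 0 and miR-30e-3p below, at -0.91, while miR-30d-5p and miR-30a-3p change sign between the scalings, whose medians over all miRNAs (vertical lines) are 0.06 and 0.54.

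The family's makeup compares members within a library, so it does not depend on scaling. miR-30d-5p formed 21.03%, 18.07% and 21.97% of the reads of the 5p arms in EV replicates 1 to 3 and 37.08%, 31.86% and 34.08% in cell replicates 1 to 3. Its share was thus smaller in every EV library, with means of 20.4% ± 2.04 and 34.3% ± 2.62 (SD, n = 3 each). miR-30e-5p formed 28.7%, 33.27% and 26.97% in EVs and 20.59%, 19.71% and 20.42% in cells. Its share was larger in every EV library. miR-30b-5p also took a larger share in every EV library, 4.09% ± 0.438 against 2.55% ± 1.11 (SD, n = 3 each). For each of these 3 the 2-sided exact permutation p was 0.1, the smallest possible, and 0.167 after adjustment over the 5 members. Shares of miR-30a-5p (33.8% ± 1.75 against 30.3% ± 4.61, exact permutation p = 0.4) and miR-30c-5p (12.1% ± 0.749 against 12.6% ± 6.54, exact permutation p = 0.8) overlapped (SD, n = 3 each). The stacked plot of these shares shows the smaller band of miR-30d-5p in the EV libraries.

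**Figure D3:**
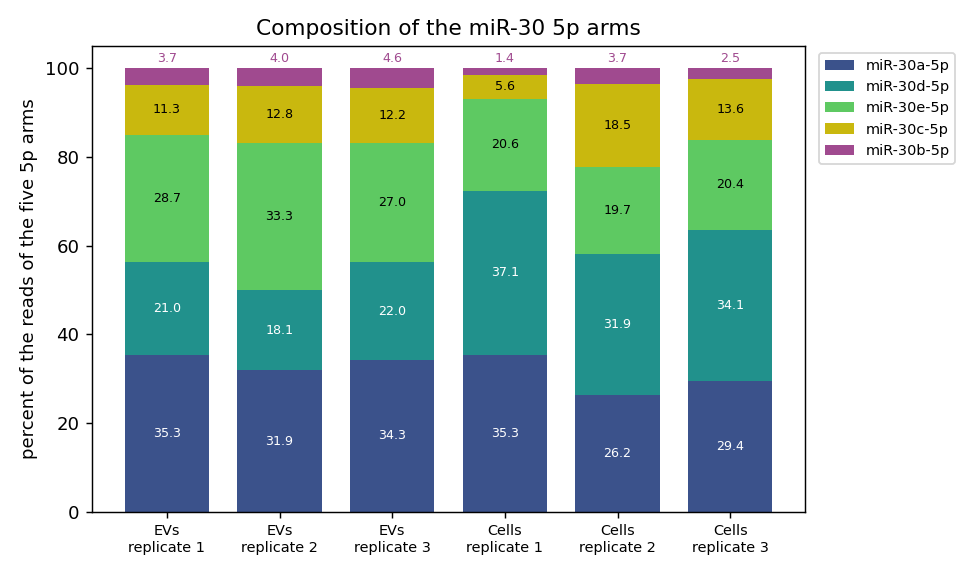
Percent of the reads of the 5 miR-30 5p arms taken by each arm, 1 bar per library. miR-30d-5p makes up 31.86% to 37.08% of the bars for cells and 18.07% to 21.97% of those for EVs, and miR-30e-5p takes 26.97% to 33.27% in EVs against 19.71% to 20.59% in cells.

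Ratios between guide strands give the same data pair by pair. Per read of miR-30d-5p there were 1.68, 1.76 and 1.56 reads of miR-30a-5p in EV replicates 1 to 3 and 0.952, 0.823 and 0.862 in cell replicates 1 to 3. The balance of these 2 arms therefore crossed 1 between the groups in every library. miR-30e-5p per read of miR-30d-5p went from 0.591 ± 0.0325 in cells to 1.48 ± 0.322 in EVs (SD, n = 3 each). miR-30b and miR-30d are neighbouring genes, yet miR-30b-5p per read of miR-30d-5p was 0.202 ± 0.024 in EVs and 0.0762 ± 0.0381 in cells (SD, n = 3 each). miR-30e-5p per read of miR-30a-5p was 0.882 ± 0.141 in EVs and 0.677 ± 0.0856 in cells, and miR-30c-5p per read of miR-30b-5p was 2.98 ± 0.258 and 4.75 ± 0.791 (SD, n = 3 each). In these 5 pairs the groups did not overlap, with an exact permutation p of 0.1 and 0.14 after adjustment over the 7 pairs compared. Ratios of miR-30c-5p to miR-30e-5p and to miR-30a-5p overlapped, with exact permutation p of 0.4 and 1.0.

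The arm ratio, reads of the 5p arm per read of the 3p arm of one hairpin, also needs no scaling between libraries. It was higher in EVs for miR-30e, miR-30b and miR-30c. Changes were tested with limma on log2 ratios, with 0.5 added to each count, over the 187 hairpins with enough reads. For miR-30e, the ratio was 40.84, 33.37 and 22.47 in EV replicates 1 to 3 and 8.676, 8.403 and 8.532 in cell replicates 1 to 3. The cell libraries lay close together, and each EV library was higher than all of them. The change was 1.87 on the log2 scale (SE 0.42, limma adjusted p = 0.00897). Put as a share, the 3p arm was 2.39%, 2.91% and 4.26% of the hairpin's reads in EV replicates 1 to 3 and 10.3%, 10.6% and 10.5% in cell replicates 1 to 3. The exact 95% interval, for counting error only, was 3.98% to 4.56% in EV replicate 3, the highest of its group, and 8.95% to 11.8% in cell replicate 1, the lowest of the cells.

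For miR-30b the ratio was 219.7, 524 and 432.4 in EV replicates 1 to 3 and 22.2, 48.2 and 44.5 in cell replicates 1 to 3, with no overlap. It rests on 16 reads of the 3p arm in each group. The change was 3.30 (SE 0.50, limma adjusted p = 0.00255).

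For miR-30c, whose 3p reads are the sum of miR-30c-1-3p and miR-30c-2-3p, the ratio was 214.1, 151.5 and 150.6 in EV replicates 1 to 3 and 15.85, 45.07 and 42.03 in cell replicates 1 to 3. Cell replicate 1 was again the lowest. The change was 2.45 (SE 0.51, limma adjusted p = 0.00806), and 1.96 (adjusted p = 0.0178) without cell replicate 1. With ordinary least squares in place of the moderated test the adjusted p was 0.0533.

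miR-30a and miR-30d were not called. The ratio of miR-30a was 21.62, 18.02 and 16.18 in EV replicates 1 to 3 and 14.17, 8.653 and 11.25 in cell replicates 1 to 3. Every EV library was higher than every cell library, with a change of 0.73 (SE 0.41, limma adjusted p = 0.202). A fit that weighted each library by counting error and a fixed, assumed biological variance gave the same change. Its SE was 0.27 and its limma adjusted p was 0.0499. That weighted fit was added after the data were seen. The ratio of miR-30d went the opposite way, at 461.5, 471.3 and 521.2 in EV replicates 1 to 3 and 2844, 523 and 1196 in cell replicates 1 to 3. Every cell library was higher, but on 8 reads of the 3p arm in all cells, 1 of them in replicate 1. The change was -1.04 (SE 0.55, limma adjusted p = 0.167), -0.56 (adjusted p = 0.388) without cell replicate 1 and -1.57 (adjusted p = 0.0455) without cell replicate 2.

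So 3 of the 5 miR-30 hairpins were called with a higher ratio in EVs, where the background over all hairpins tested was 12.8%. In the unweighted limma fit miR-30a and miR-30d were not called, and a lower ratio in EVs was called for 23.0% of all hairpins tested. On simulated data that fit called somewhat too many unchanged hairpins. The weighted fit, added after the data were seen, called a higher ratio for 4, miR-30a included, and for 23 of all 187 hairpins tested. With miR-30a and miR-30e summed per arm, the ratio was 27.41, 23.55 and 18.46 in EV replicates 1 to 3 and 11.49, 8.544 and 9.951 in cell replicates 1 to 3. Every EV library was higher than every cell library in this sum of near-identical arms as well. How many of all hairpins tested had ratios that did not overlap between the groups was not counted.

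**Figure D4:**
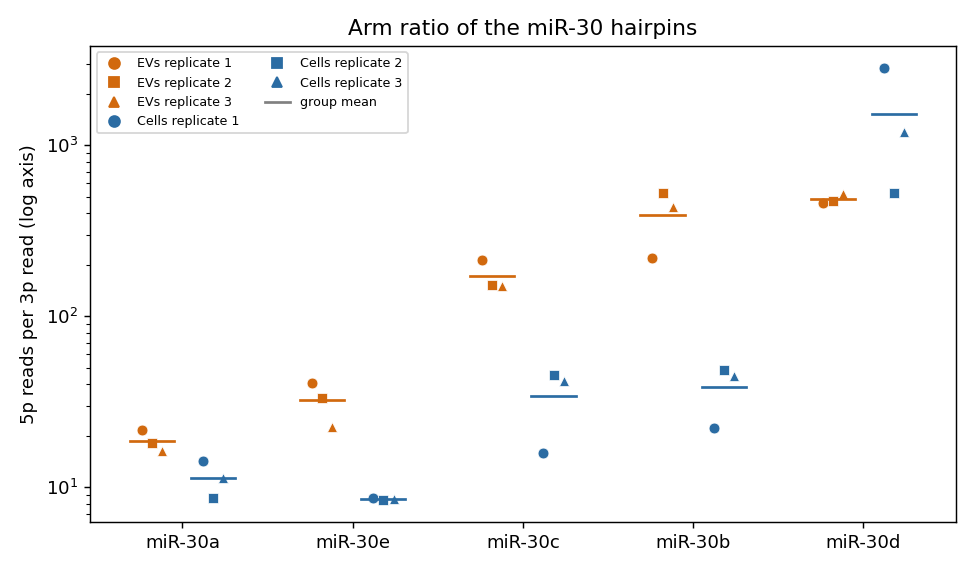
Reads of the 5p arm per read of the 3p arm for 5 miR-30 hairpins (log axis), with points for single libraries and lines for group means. EV libraries (orange) lie above cell libraries (blue) for miR-30a, miR-30e, miR-30c and miR-30b, at 22.47 to 40.84 against 8.403 to 8.676 for miR-30e, and below them for miR-30d, where a cell point rests on as little as 1 read of the 3p arm.

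Relatives outside the 9 members were read from the same tables. There were 5 of them, the 3p arms of the 2 miR-30c hairpins, miR-30f, and both arms of miR-384, a hairpin on the X chromosome. Of the 3 that were tested, 1 was called, and it was lower in EVs. That was miR-30c-2-3p, a passenger strand that shares its seed with miR-30c-1-3p, at 41.76, 66.93 and 76.87 CPM in EV replicates 1 to 3 and 166.5, 181.2 and 163.1 CPM in cell replicates 1 to 3. Its fitted log2 change was -1.91 (SE 0.31, edgeR adjusted p = 0.00087). miR-384-5p, which shares the seed of the miR-30 guides, was at 1580, 1166 and 1582 CPM in EV replicates 1 to 3 and at 800.3, 1269 and 1235 CPM in cell replicates 1 to 3. The groups overlapped, and the change was -0.07 (SE 0.21, edgeR adjusted p = 0.827). Its partner miR-384-3p was also not called (-0.29, SE 0.26, edgeR adjusted p = 0.377) and was lowest in cell replicate 1, at 825.9 CPM. miR-30c-1-3p had 6 reads in the EV libraries together and 6 in the cell libraries. miR-30f, which the annotation places antisense to Mir30e, had 3 reads in all EV libraries and 0 in the cell libraries.

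The nearest of 94 other miRNAs, picked for their small differences, followed the summed 5p arms more closely than any tested member did. Likeness was the root mean square difference of log2 CPM, each centred on its mean over the 6 libraries, among 94 others whose mean reached 1000 CPM. The smallest difference, 0.0335, was that of miR-25-3p, at 7712, 6690 and 7549 CPM in EV replicates 1 to 3 and 3880, 3869 and 4097 CPM in cell replicates 1 to 3. miR-93-5p followed at 0.0708 and miR-342-3p at 0.119. Among the 7 tested members the difference ran from 0.156 for miR-30a-5p to 0.7 for miR-30e-3p. These are descriptions over 6 libraries that share the same totals.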

How the data were processed

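Small RNA of 15 to 200 nt was sequenced from 3 EV and 3 cell samples, with 4 random bases on the adapters and 14 PCR cycles, per the labels' protocols. The authors deposited whole-number read counts per mature miRNA for each sample. The submitters' processing notes name featureCounts 1.4.6-p4 (Subread), the aligner Bowtie 0.12.8, the trimmer cutadapt 1.7.1 and bcl2fastq 1.8.4, with the builds NCBIM37 and mm9. How mismatches, multiple mapping and strand were handled is not given in the sources used here. No step that collapses PCR duplicates is named, so the intervals here cover counting error only.

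Counts were tested with edgeR 4.0.16 (TMM, quasi-likelihood test, filterByExpr with a minimum count of 10) in R 4.3.3, over all 336 miRNAs that passed, and p-values were adjusted by Benjamini-Hochberg with a threshold of 0.05. Arm ratios were tested with limma 3.58.1 on log2((5p + 0.5)/(3p + 0.5)) for 187 hairpins, those whose arms together had 10 or more counts in each library. Exact permutation tests were 2-sided, and 3 against 3 samples allow no p below 0.1. Both fits were tested on simulated data. In the simulation the arm test called somewhat too many unchanged hairpins, so a weighted fit was added after the data were seen. Its weights combined counting error with a fixed, assumed biological variance. Mature sequences came from RefSeq tables on GRCm38.p6, which is not the authors' build, and no coordinates are printed.

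EV and cell libraries share replicate numbers. Deviations from the group means correlated at 0.115, 0.103 and 0.254 between same-numbered libraries. Between others they correlated at -0.14 to 0.0203, so the numbers may pair the samples. The main fits and the permutation tests did not use that pairing. A replicate block, which does use it, was fitted as an alternative. No 2 libraries of a group differed by as little as sampling noise (chi-square per degree of freedom 7.73 to 37.5). One read equals 1.45 to 7.88 CPM, and the limit that a count of 0 allows, 3 reads, is 4.35 to 23.6 CPM. Alternatives were library size only, upper-quartile scaling, DESeq2 1.42.0, limma-voom, other filters, thinning to 126910 reads, leaving out the most abundant miRNA or each library, and the replicate block. The miRNAs named with results are all members and their relatives, and the 3 miRNAs nearest to the summed 5p arms. Single miRNAs of the marker lists are named only to describe those lists. The members and lists were chosen with earlier results of these data known.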

Additional observations from a re-analysis of the deposited data

How the results depend on the processing

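Scaling by library size only gave 148 miRNAs called higher in EVs and 60 called lower. In edgeR 0 members were then called lower, and 0 had an unadjusted p below 0.05 with that direction. In that setting miR-30d-5p turned to 0.11 and miR-30a-3p to 0.30. In other settings 2 members were called lower, but not the same 2. miR-30d-5p joined miR-30e-3p with DESeq2, with upper-quartile scaling and without the most abundant miRNA, where 7 members were tested. With DESeq2, 99 of all 336 miRNAs tested were called lower. miR-30b-3p joined miR-30e-3p without the low-count filter, with the filter at 10 CPM and without cell replicate 3, where 9 members were tested. Over all miRNAs tested, 111 of 1015, 124 of 504 and 88 of 383 were called lower in those settings, in that order. With any other single library left out, 1 member was called lower, and 92 to 98 of the 328 to 383 miRNAs tested. Arm ratios called higher numbered 10 with at least 30 counts per hairpin and 12 with ordinary least squares, and 12 to 21 with single libraries left out. Arm ratios called lower numbered 10 with ordinary least squares and 24 to 43 with single libraries left out, and among the miR-30 hairpins 0 to 1. Pairing the libraries by a replicate block gave 91 miRNAs called higher and 96 lower, and it changed no call of a member or of a miR-30 hairpin (miR-30e-5p 0.93, adjusted p = 0.00581). Depth limits the 3p arms of miR-30b and miR-30d most: their levels, and the arm ratios built on them, rest on 16 and 8 reads in all cell libraries.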
